A study of Homo sapiens with 2 samples.

Results

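Genes of the NF-kB subunits and of their inhibitors were examined in A549 cells, an established human lung adenocarcinoma line, without and with overexpression of MYOCD. The 10 genes were taken by symbol from the 56255 symbols of the deposited expression table. They comprise the subunit genes NFKB1, NFKB2, RELA, RELB and REL, the IkB genes NFKBIA, NFKBIB and NFKBIE, and TNFAIP3 and BIRC3, and each stood on 1 row of the table. One library was made from untreated wild-type cells (WT) and 1 from cells overexpressing MYOCD (MYOCD), the gene of myocardin, a coactivator of serum response factor in muscle. Both were grown in DMEM with fetal bovine serum, with no cytokine named in the labels. The labels do not say whether the WT cells carried an empty vector, how MYOCD was delivered or whether the MYOCD cells were a clone or a pool. Because each group is a single library, no difference below has a replicate error or a p-value, and all calls are by size alone.

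NF-kB transcription factors are dimers of 5 related subunits. In resting cells IkB proteins hold most dimers in the cytoplasm. Signals from receptors of tumour necrosis factor, interleukin 1 and microbial products activate the IkB kinase complex (IKK), the IkB protein is degraded, and the dimer enters the nucleus. NFKBIA, TNFAIP3 and BIRC3 are themselves classic targets of the pathway and feed back on it. In other cells, myocardin has been reported to bind RELA and to reduce NF-kB activity.

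Values are RPKM, reads scaled to gene length and library size. Levels are set side by side on that scale between genes and between libraries. Such comparisons also rest on the annotation, strand use and treatment of shared reads, which the sources used here do not give. The library labelled MYOCD held 48.6 RPKM of MYOCD against 0.304 in WT. Both libraries carried the epithelial keratins KRT8 (1523 RPKM in WT against 1059 in MYOCD), KRT18 (1647 and 1134) and KRT7 (996 and 1386). KRT19 (2.94 and 3.24) and CDH1 (35.01 and 35.8) differed little, and EPCAM was low, at 0.889 and 2.57 RPKM. The blood cell genes PTPRC, CD3E and MS4A1 were listed at 0 in both. Of 10 blood cell markers 3 passed 1 RPKM, namely CD68 (18.3 RPKM in WT against 25.1 in MYOCD), CD14 (2.31 and 1.17) and ITGAM (1.47 and 1.05). The summed level of all 10 was 22.3 RPKM in WT against 28.1 in MYOCD. The summed level of 6 endothelial markers was 25.1 and 21.8 RPKM, of which EGFL7 made up 23.7 and 18.2 and ESAM 1.40 and 3.497. That of 7 fibroblast markers was 5.701 and 15.8, of which COL1A1 made up 3.05 and 14.3. The other fibroblast marker past 1 RPKM, THY1, stood lower in MYOCD, at 1.91 and 0.959. The part of these markers in the results below was not tested. The sequencing depth of the libraries is unknown, since the table holds no counts.

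The 2 largest differences between the libraries lay in IkB genes, while 5 of the genes lay close to WT. RELA, NFKB2, REL, TNFAIP3 and BIRC3 each lay within 10% of their WT level. NFKBIE was 2.95-fold higher in MYOCD and NFKBIA 1.61-fold lower, while NFKB1 and NFKBIB stood higher and RELB lower by less than 1.5-fold. Changes are given as log2((MYOCD + 0.5)/(WT + 0.5)), where adding 0.5 RPKM makes the change of low genes look smaller. Counts at 2-fold and 1.5-fold use this change, while the folds just given are ratios of plain RPKM. Genes with at least 1 RPKM in either library were counted, and all 10 passed. At 2-fold or more, 1 of the 10 was higher (NFKBIE) and 0 were lower, where 5.42% of the 17350 genes past the same filter were higher and 6.35% lower. At 1.5-fold or more, 1 of the 10 was higher and 1 was lower (NFKBIA), against 11.6% and 13.2% of all genes. All 10 are protein-coding, and among the 12337 protein-coding genes past the filter 3.02% were higher and 3.1% lower by 2-fold, and 8.52% and 8.89% by 1.5-fold. Counts of 0 or 1 gene of 10 are too small to be set apart from these shares. The median change of the 10 was -0.02, beside -0.00 for all genes. In bulk RNA, a lower level per cell and fewer cells that express a gene cannot be told apart.

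**Figure D1:**
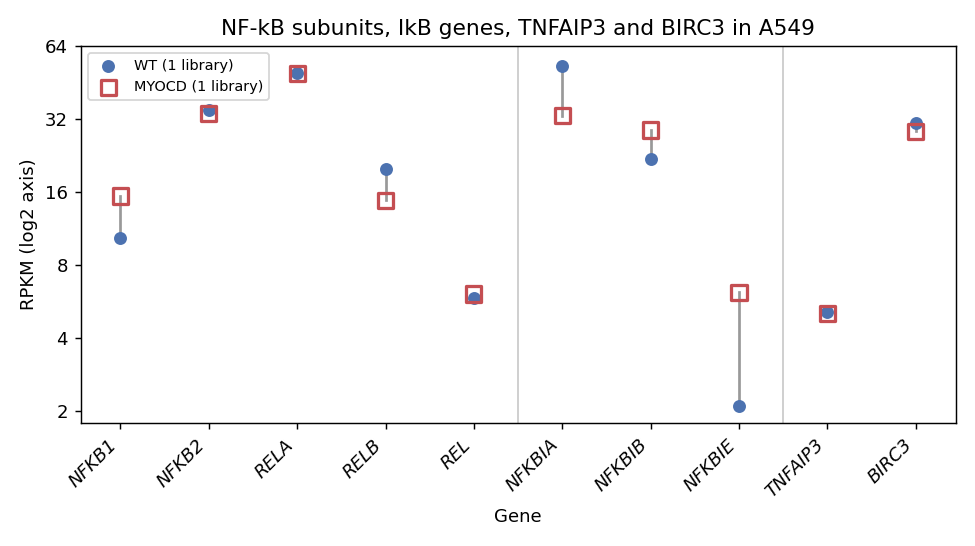
RPKM (vertical, log2 axis) of the 5 subunit genes, the 3 IkB genes, and TNFAIP3 and BIRC3 in the 1 WT library (filled circles) and the 1 MYOCD library (open squares), with a grey line joining the pair. The symbols coincide for RELA and TNFAIP3 and are farthest apart for NFKBIE, at 2.09 in WT and 6.15 in MYOCD.

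Among the subunits, RELA, which carries the main transactivation domain of the classical dimer, had 49.6 RPKM in WT against 49.1 in MYOCD. It was the most abundant of the 5 in both libraries. NFKB2, which encodes the p100 precursor of p52, had 34.7 RPKM in WT against 33.7 in MYOCD. REL, the subunit best known from lymphocytes, had 5.83 and 6.06 RPKM. These 3 genes had log2 changes of -0.01, -0.05 and 0.05. That of RELA was 0.00 when the median of steady reference genes was set to 0, so its sign carries no direction.

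The other subunit genes stood on opposite sides of their WT levels. NFKB1, which encodes the p105 precursor of p50, stood at 10.3 RPKM in WT against 15.4 in MYOCD, a log2 change of 0.56 and a ratio of 1.49. It therefore fell just short of the 1.5-fold rule. RELB, the partner of p52 in the alternative pathway, stood at 19.9 RPKM in WT against 14.8 in MYOCD, a log2 change of -0.42. In WT the RELB level was above that of NFKB1, and in MYOCD the order of these levels was reversed.

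The summed level of the 5 subunit genes was 120.4 RPKM in WT against 119 in MYOCD. Within that sum RELA held 41.2% in WT and 41.3% in MYOCD, and NFKB2 28.9% and 28.3%. The share of NFKB1 was 8.55% in WT and 12.9% in MYOCD, while that of RELB was 16.6% and 12.4%. The ratio of NFKB1 to NFKB2, the genes of the precursors, was 0.296 in WT and 0.457 in MYOCD. Such shares and ratios are taken within a library and so do not depend on how the libraries were scaled to each other.

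Both genes that met the 1.5-fold rule were IkB genes. NFKBIA encodes IkB-alpha, the inhibitor that is rapidly degraded and resynthesised during a response. It stood at 53.1 RPKM in WT, the highest of the 10 genes there, and at 32.9 in MYOCD, where it came after RELA and NFKB2. The log2 change was -0.68. NFKBIB encodes IkB-beta, a more slowly acting inhibitor, and stood at 21.8 RPKM in WT against 28.8 in MYOCD, a log2 change of 0.40. NFKBIE encodes IkB-epsilon, which acts later in a response and binds RELA and REL dimers. With 2.09 RPKM in WT it was the lowest of the 10. At 6.15 in MYOCD it stood barely above REL (6.06) and above TNFAIP3 (5.04). Its log2 change of 1.36 was the largest of the 10.

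Together the 3 IkB genes had 76.9 RPKM in WT against 67.9 in MYOCD. NFKBIA made up 69% of that sum in WT and 48.5% in MYOCD, NFKBIB 28.3% and 42.4%, and NFKBIE 2.71% and 9.06%. The ratio of NFKBIA to NFKBIB was 2.44 in WT and 1.14 in MYOCD. NFKBIA stood at 1.07 times the level of RELA in WT and 0.671 times in MYOCD. The precursors p105 and p100 also act as inhibitors before they are processed. With NFKB1 and NFKB2 added, the inhibitor sum was 122 RPKM in WT against 117 in MYOCD, and NFKBIA held 43.5% and 28.2% of it.

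**Figure D2:**
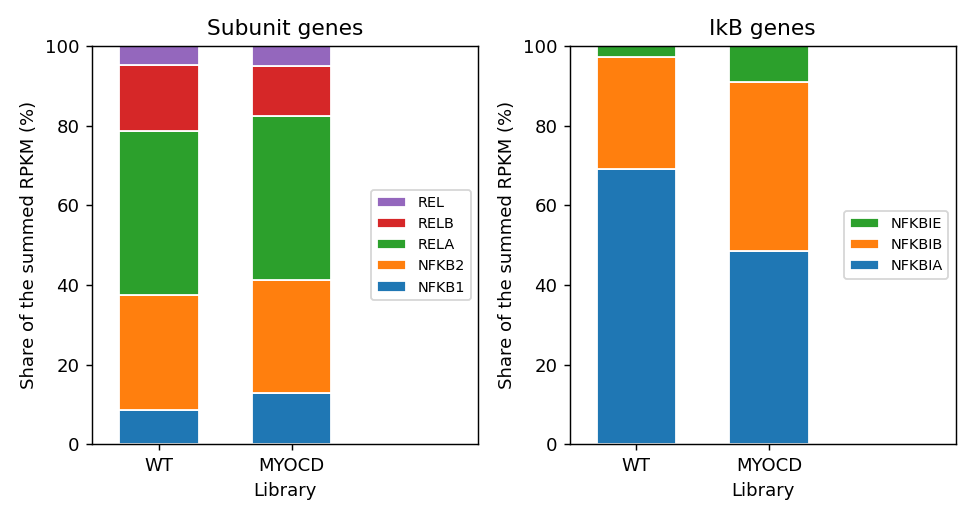
Share of the summed RPKM (vertical, in percent) held by each subunit gene (left) and each IkB gene (right) in the 1 WT and the 1 MYOCD library. RELA keeps a share of 41.2% and 41.3%, while NFKBIA goes from 69% to 48.5% of the IkB sum.

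TNFAIP3 encodes A20, an enzyme that edits ubiquitin chains and shuts off signalling upstream of IKK. It had 5.11 RPKM in WT against 5.04 in MYOCD, a log2 change of -0.02. BIRC3 encodes cIAP2, a ubiquitin ligase of the receptor complex, and had 30.8 RPKM in WT against 28.4 in MYOCD, a log2 change of -0.11. Its paralog BIRC2 had 25.6 and 28.6 RPKM, so BIRC3 was at 1.20 times the level of BIRC2 in WT and 0.996 times in MYOCD. The sources used here do not say how the counting treated reads common to paralogs.

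How far these changes stand out depends on the level of the gene. Of the 4551 genes whose mean RPKM lay within 2-fold of that of NFKBIE, 6.77% changed at least as far in either direction. For NFKBIA this was 10.8% of 3980 genes, for NFKB1 17.8% of 5576, for RELB 25% of 5500 and for NFKBIB 26.5% of 5164. For RELA and TNFAIP3 the shares were 96% and 96.8%. These are places among the genes of 1 pair of libraries and not error rates. The reference genes were not limited to protein-coding genes, although all the genes placed here are protein-coding. By 2-fold, 3.02% of protein-coding genes past the filter were higher and 3.1% lower, against 5.42% and 6.35% of all genes. Places among protein-coding genes alone were not computed, and may differ from those given.

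**Figure D3:**
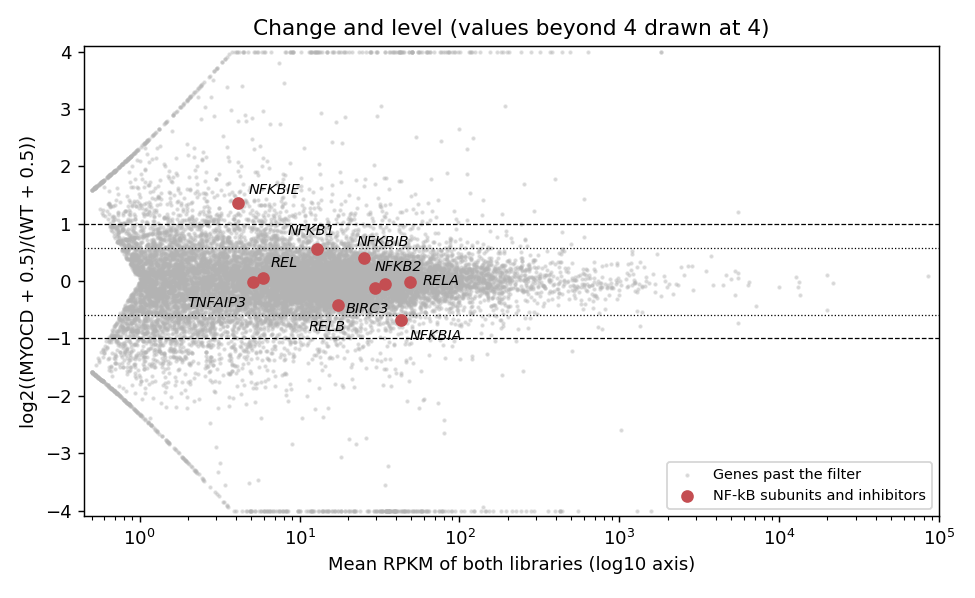
The log2 change between MYOCD and WT (vertical, pseudocount of 0.5 RPKM) against the mean RPKM of both libraries (horizontal, log10 axis) for the 17350 genes past the filter (grey) and the 10 NF-kB genes (red). Dashed lines mark 2-fold and dotted lines 1.5-fold. NFKBIE lies above the upper dashed line, NFKBIA below the lower dotted line, and the other 8 between the dotted lines.

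On GRCh38 (GENCODE release 29) NFKBIE lies on chromosome 6 from 44258166 to 44265788 on the minus strand, with 2581 nt of exon and no overlapping gene. NFKBIA lies on chromosome 14 from 35401511 to 35404749 on the minus strand, with 2373 nt of exon and likewise no overlapping gene. NFKB1 lies on the plus strand of chromosome 4, from 102501329 to 102617302, also free of overlap. REL, on chromosome 2 from 60881521 to 60931610, shares 43.3% of its 13170 nt of exon with the non-coding gene AC010733.2 on the same strand. That gene was listed at 2.18 RPKM in WT against 1.11 in MYOCD, so the value of REL is uncertain where reads were shared. NFKBIB, RELA and TNFAIP3 share 40, 9 and 95 nt of exon with genes of the opposite strand, and the sources used here do not say whether the counting used strand.

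The start regions of these genes were searched for the NF-kB consensus site, a motif of 10 bases, on both strands, with overlapping matches merged. RefSeq promoter windows (GRCh38.p14, 250 bases before to 50 after each start) were lacking for RELB and NFKBIE. They were given for the other 8 of the 10 genes. At least 1 match was found in 8 of their 13 windows, for 7 of the 8 genes, against 11.3% of all 35116 windows. By gene, 13.3% of 27305 genes had a match in any window. Because NFKBIA, TNFAIP3 and BIRC3 are classic targets of the pathway, the share among these genes says nothing about NF-kB activity in the libraries. RELA had no match in either of its windows, which says only that these letters are not there. The 250 bases before the start are shown for 4 genes because all 4 hold a match while their levels differ in direction: NFKBIA was lower in MYOCD, NFKB1 higher, and TNFAIP3 and BIRC3 close to WT. Each runs 5′ to 3′ on the strand of its gene, with matches to the consensus in capitals.
NFKBIA, chr14:35404750-35404999 (- strand): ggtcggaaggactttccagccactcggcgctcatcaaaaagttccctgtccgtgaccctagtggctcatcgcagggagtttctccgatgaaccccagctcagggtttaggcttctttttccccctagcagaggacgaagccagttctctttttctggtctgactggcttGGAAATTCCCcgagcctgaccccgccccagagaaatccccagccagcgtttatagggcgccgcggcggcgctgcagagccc
NFKB1, chr4:102501109-102501358 (+ strand): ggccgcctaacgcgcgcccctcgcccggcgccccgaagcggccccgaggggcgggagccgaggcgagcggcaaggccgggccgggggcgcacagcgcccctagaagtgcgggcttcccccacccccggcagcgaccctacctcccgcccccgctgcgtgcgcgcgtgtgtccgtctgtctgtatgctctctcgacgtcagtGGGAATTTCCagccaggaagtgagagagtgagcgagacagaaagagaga
TNFAIP3, chr6:137867009-137867258 (+ strand): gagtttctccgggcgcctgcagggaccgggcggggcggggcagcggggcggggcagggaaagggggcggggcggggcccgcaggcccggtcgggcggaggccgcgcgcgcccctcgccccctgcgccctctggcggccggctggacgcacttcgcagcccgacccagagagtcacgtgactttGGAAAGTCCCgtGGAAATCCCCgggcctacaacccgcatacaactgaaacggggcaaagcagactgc
BIRC3, chr11:102317234-102317483 (+ strand): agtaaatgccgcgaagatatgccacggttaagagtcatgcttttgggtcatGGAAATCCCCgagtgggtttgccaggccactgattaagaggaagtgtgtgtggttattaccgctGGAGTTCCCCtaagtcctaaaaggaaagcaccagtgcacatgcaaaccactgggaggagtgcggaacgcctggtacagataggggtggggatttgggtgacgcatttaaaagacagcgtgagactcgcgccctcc

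The match in NFKBIA begins 81 bases before the start and that in NFKB1 49 bases before it. TNFAIP3 holds a pair of matches, at 67 and 55 bases before its start, and BIRC3 another pair at 199 and 135. A pair or more in 1 window was found in 0.994% of all windows. Pairs were not confined to TNFAIP3 and BIRC3. Among the genes not shown, NFKB2 had a pair at 107 and 78 bases before 1 of its starts. It had another pair at 176 and 21 bases before a further start, the latter match being GGGACTTTCC. NFKBIB had a pair at 28 bases before and 38 bases after 1 of its starts. REL had GGGAAATTCCC beginning 47 bases before its start. A match is a description of the sequence, and binding at these sites was not measured here.

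The remaining pathway genes were grouped by role. The counts of each list stand beside 5.42% higher and 6.35% lower by 2-fold over all genes past the filter, and 11.6% and 13.2% by 1.5-fold. Among protein-coding genes these shares were 3.02% and 3.1%, and 8.52% and 8.89%. Whether a list differs from these shares was not tested. Of 38 receptors and ligands 16 passed the filter, with 0 higher and 0 lower by 2-fold, 4 lower and 0 higher by 1.5-fold, and a median change of -0.15. The 4 were TNFRSF21, which encodes death receptor 6 (34.5 RPKM in WT against 18.1 in MYOCD), IL1RAP, the shared chain of interleukin 1 family receptors (6.59 and 3.69), the double-stranded RNA receptor gene TLR3 (1.18 and 0.490) and the cytokine gene IL18 (63.4 and 41.5). Their log2 changes ran from -0.91 to -0.61. TLR3 passed the filter through WT alone, the library where it was higher. The ligand genes TNF, LTA, CD40LG and TNFSF11 were listed at 0 in both libraries. The receptor gene of highest level was TNFRSF12A, for the cytokine TWEAK, at 584 and 474 RPKM. TNFRSF1A, the principal receptor of tumour necrosis factor, was at 212 RPKM in WT against 282 in MYOCD, and LTBR, the lymphotoxin receptor that feeds the alternative pathway, at 84.6 and 75.0.

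Of 44 adaptor, ubiquitin and kinase genes 41 passed the filter, with 0 higher and 1 lower by 2-fold, 1 higher and 3 lower by 1.5-fold, and a median of 0.01. The gene lower by 2-fold was MAP3K8, which encodes the kinase TPL2. It stood at 28.0 RPKM in WT against 11.8 in MYOCD, a log2 change of -1.21. TPL2 is held inactive by p105, the product of NFKB1. NFKB1 stood higher in MYOCD by less than 1.5-fold, and a link between the levels of these genes was not tested. MAP3K14, which encodes NIK, the kinase that starts p100 processing, stood at 42.96 RPKM in WT against 27.2 in MYOCD, a log2 change of -0.65. The ubiquitin ligase gene TRAF6 stood at 7.33 and 4.19, and the scaffold gene CARD10 at 4.39 and 8.73, with log2 changes of -0.74 and 0.92.

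The IKK genes lay within 1.5-fold of WT. IKBKB, the main kinase of IkB-alpha, had 26.4 RPKM in WT against 23.6 in MYOCD, the regulatory subunit gene IKBKG 48.7 and 44.7, and CHUK, the kinase of the alternative pathway, 20.3 and 24.5. The genes of the ligase that marks phosphorylated IkB for degradation included SKP1 at 225 and 224 RPKM, CUL1 at 27.7 and 33.1, and BTRC at 6.76 and 10.1. In the complex that degrades NIK, TRAF3 had 18.0 and 17.7 RPKM and TRAF2 19.5 and 26.7.

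Of 28 other IkB-like and negative regulator genes 25 passed the filter, with 0 at or beyond 2-fold, 2 higher and 2 lower by 1.5-fold, and a median of -0.03. NFKBID was 2.04-fold higher in plain RPKM but under 2-fold with the pseudocount. The nuclear IkB genes differed among themselves. BCL3, a coactivator of p50 and p52 dimers, stood at 79.3 RPKM in WT against 50.4 in MYOCD, while NFKBID stood at 4.63 and 9.47, with log2 changes of -0.65 and 0.96, and NFKBIZ at 4.65 and 4.03. NFKBID shares 111 nt of exon with AD000864.1 on the same strand, which was listed at 0 in both libraries. ZC3H12A, an RNase that degrades inflammatory transcripts, stood at 11.6 and 6.16, and the pseudokinase gene TRIB3 at 10.8 and 17.1. The A20 partner genes TNIP1 and TNIP2 stood at 37.3 and 36.5 and at 11.2 and 14.6.

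Of 60 common NF-kB target genes 44 passed the filter. By 2-fold, 4 were higher and 3 lower, where 5.42% and 6.35% of all genes past the filter were. By 1.5-fold, 8 were higher and 7 lower, where 11.6% and 13.2% of all genes were. The median was -0.06. Higher were the cytokine gene IL11 (log2 change of 2.41), BCL2A1, an anti-apoptotic relative of BCL2 (3.31 RPKM in WT against 12.5 in MYOCD), the chemokine gene CXCL5 (1.03) and TNFAIP6, which encodes a hyaluronan-binding protein and was listed at 0 in WT and at 1.90 RPKM in MYOCD. Lower were the adhesion gene ICAM1, the cyclooxygenase gene PTGS2 (-1.29) and the immunoproteasome gene PSMB9 (20.5 and 9.14 RPKM). ICAM1 stood at 1.24 RPKM in WT against 0.152 in MYOCD, a log2 change of -1.42. It passed the filter through WT alone, and TNFAIP6 through MYOCD alone.

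The chemokine targets differed among themselves. The genes CXCL1, CXCL2 and CXCL3 stood at 4.22, 3.60 and 2.30 RPKM in WT and at 5.04, 5.89 and 3.25 in MYOCD. CCL2 (39.0 and 23.9) and CCL20 (2.60 and 1.16) stood lower in MYOCD, and CXCL8 was at 4.72 and 3.74. The abundant targets TNFAIP2 (273 and 193) and SOD2 (51.5 and 42.3), which encodes mitochondrial superoxide dismutase, lay under 1.5-fold, and the interferon regulatory factor gene IRF1 stood at 9.60 and 5.72. A consensus match was present for 21 of the 43 targets with a promoter window, against 13.3% of 27305 genes. Because the list was drawn up from common NF-kB targets, this share says nothing about NF-kB activity in these libraries.

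Of 21 RELA cofactor genes all passed the filter, with 0 higher and 1 lower by 2-fold and a median of 0.01. The deacetylase gene HDAC2 had 91.5 RPKM in WT against 85.0 in MYOCD. RPS3, a ribosomal protein gene whose product also binds RELA, had 1251 and 1222. The exception was EHMT1, a histone methyltransferase gene, at 119 and 27.1 RPKM. A transcript gene of 235 nt, AL590627.2, shares 52 nt with EHMT1 on the same strand, which is 0.234% of the 22217 nt of EHMT1 exon. AL590627.2 was listed at 42.8 RPKM in WT against 0 in MYOCD. The part of shared reads in the EHMT1 value was not tested.

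**Figure D4:**
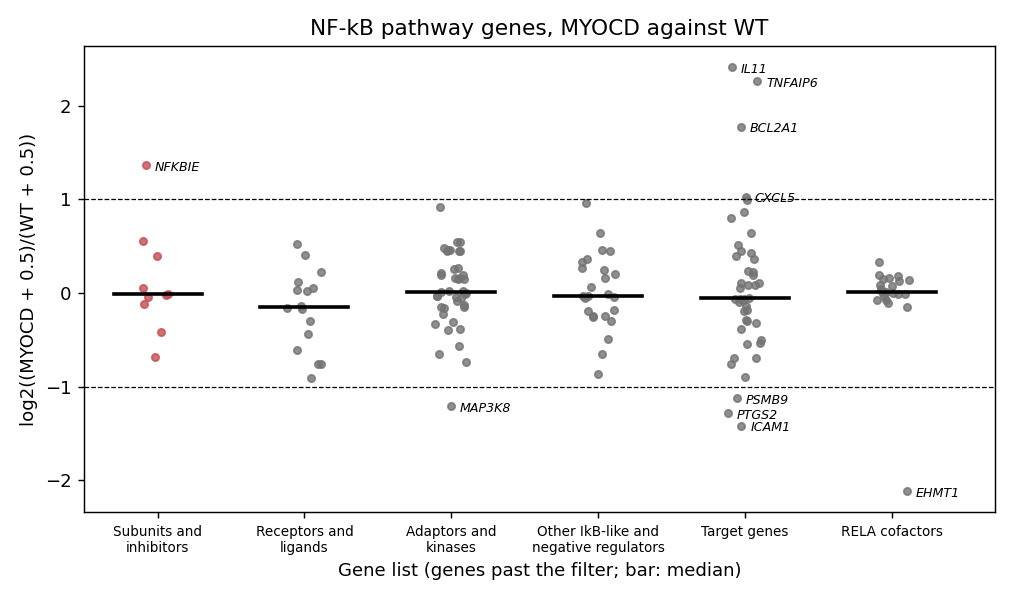
The log2 change between MYOCD and WT (vertical, pseudocount of 0.5 RPKM) of each gene past the filter (points) in the 10 subunit and inhibitor genes (red) and 5 other lists of NF-kB pathway genes (grey), with the list median as a bar and genes beyond 2-fold (dashed lines) named. The medians run from -0.15 for receptors and ligands to 0.01, and the target genes have members beyond 2-fold on both sides.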

How the data were processed

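RNA of 1 WT and 1 MYOCD library was measured. The authors deposited RPKM, per the file headers, with no counts, so no count test was run. A key in the table ties each column to its group. Bowtie 0.12.2 and the builds mm8 and GRCh38.p12 are named without a role in the submitters' processing notes. The sources used here do not give the counting tool, annotation or strand use.

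From the RPKM, log2 changes with a pseudocount of 0.5 RPKM were computed in Python 3.11.15 with pandas 2.3.3, for symbols with at least 1 RPKM in either library. Of symbols on several rows, the row with the higher mean was used. Calls at 2-fold and 1.5-fold are rules of size. In 3081 single-transcript genes of at least 2000 nt, 23.7% of the low WT values and 29% of the low MYOCD values lay within 0.1 of a whole read under the best step. Chance gives 20%. Reads could therefore not be recovered, and no counting intervals are given. The calculation was tested on simulated data. Of each list, genes at or beyond 2-fold were named, then those at or beyond 1.5-fold up to 8, then the most abundant up to 3; 1 gene this rule named is not reported here. Other list genes were named for their role after their values were seen. The 10 genes and all lists were chosen with earlier results of these data known. Alternatives were other pseudocounts, filters and scalings.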

Additional observations from a re-analysis of the deposited data

How the results depend on the processing

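The counts of the 10 genes at or beyond 2-fold (1) and 1.5-fold (2) were the same with pseudocounts of 0.1 and 1 RPKM, without a pseudocount (an alternative chosen after seeing the data), with 3 other filters and with 3 other scalings. Across these settings the log2 change ran from 1.21 to 1.56 for NFKBIE, from -0.69 to -0.66 for NFKBIA, from 0.54 to 0.58 for NFKB1 and from -0.43 to -0.40 for RELB. The filters could not change the counts of the 10, since all 10 genes pass each of them. The scalings differed little, with log2 shifts of -0.0095, -0.0044 and -0.0175, so the equal counts say little about how firm the calls are. The median of the 10 was 0.0016 with the steady reference genes set to 0, a shift of -0.02 in those genes. With a pseudocount of 0.1 RPKM, 1 receptor or ligand gene and 1 of the other negative regulators reached 2-fold, where there had been 0 in each. The 7 targets at or beyond 2-fold were 9 without a filter. They were 5 with a filter of 5 RPKM or on a mean of 1 RPKM, and both of these filters leave out ICAM1 and TNFAIP6. Over all genes, with 940 higher and 1102 lower by 2-fold, a filter of 5 RPKM left 450 and 510, and protein-coding genes alone gave 372 and 382, or 6.11% of 12337. By 1.5-fold, 2007 were higher and 2296 lower, against 969 and 1069 with 5 RPKM, 1051 and 1097 among protein-coding genes, and 3573 lower without a filter. The stricter filter and the removal of the filter change the number of genes counted. Among protein-coding genes the share called was lower as well as the number, and the cause was not tested. No paired analysis was possible because each group has 1 library. The depth is unknown, so the counting error of low genes such as NFKBIE cannot be given.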

Other observations

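Genes with an NF-kB consensus match in a promoter window were compared with those without one as a description of the whole table. The median log2 change between MYOCD and WT was 0.03 over the 1716 genes past the filter with at least 1 match and -0.00 over the 8256 with none. Of the former 53 were higher and 56 lower by 2-fold, and of the latter 211 and 242. The 161 genes with a pair of matches or more in 1 window had a median of 0.00, with 8 higher and 4 lower.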
